A study of Mus musculus with 12 samples.

Results

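Amino acid catabolism is described here by 37 genes of amino acid breakdown, chosen by the pathway they belong to, out of 55385 gene identifiers in the deposited tables. The genes fall into 9 sets by the amino acid or reaction they serve, and all 37 were abundant enough to be tested. They were followed in primary hepatocytes, the parenchymal cells of the liver, that were isolated from 3 mice and received small interfering RNAs (siRNAs, short duplexes that direct cleavage of a matching transcript) for 48 h. The 4 groups were siHnf4a together with siCebpa (the double knockdown), siHnf4a alone, siCebpa alone and the control siRNA siCon. Each mouse gave 1 library to every group, so n = 3 per group and 12 libraries in all. All groups shared collagen-coated plates and Williams' E medium with serum, glutamine, 100 nM dexamethasone and an insulin, transferrin and selenium supplement. Strain, sex and age are not given in the labels. The question behind the groups is what hepatocytes express when the transcription factors HNF4A and C/EBPA, alone or together, are lowered.

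The liver takes up the amino acids that reach it from the gut and from other tissues and breaks down those not used for protein. Transaminases move the amino group to glutamate, from which it is released as ammonia for the urea cycle, while each carbon skeleton passes through its own short chain of mitochondrial, cytosolic or peroxisomal enzymes. HNF4A, a nuclear receptor, and C/EBPA, a basic leucine zipper protein, are known as activators of many liver-specific metabolic genes.

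Estimated counts per library summed to between 22453445 and 25008195. Hnf4a stood at 13.6, 11.6 and 11.3 transcripts-per-million (TPM; mice 1, 2 and 3) in the double knockdown, 18.9, 20.9 and 16.6 in siHnf4a, 61.1, 59.9 and 115 in siCebpa and 54.3, 116 and 138 in siCon. Cebpa stood at 63.0, 52.8 and 47.9 TPM in the double knockdown, 116, 120 and 138 in siHnf4a, 17.5, 16.3 and 13.7 in siCebpa and 103, 126 and 111 in siCon, so its knockdown was shallower in the double knockdown than in siCebpa. The 8 hepatocyte markers summed to between 4617 and 12685 TPM per library; among them Serpina1a fell and Ass1 rose in the double knockdown and in siHnf4a, and Apoa1 fell in the double knockdown. The 4 libraries of mouse 1 stood apart: the macrophage marker Cd68 was at 338 to 551 TPM there and at 61.5 to 168 TPM in the other 8, and the cholangiocyte marker Spp1 at 16.5 to 50.2 TPM there and at 81.7 to 243 TPM in the others. The Kupffer cell markers Clec4f and Timd4 did not exceed 1.61 and 0.0615 TPM in any library. Of 5 cholangiocyte markers, 4 were tested, and Krt19 and Sox9 fell against siCon in the double knockdown and in siHnf4a. All 5 summed to between 27.2 and 172 TPM in the double knockdown, between 41.8 and 180 in siHnf4a, between 24.7 and 108 in siCebpa and between 66.5 and 282 in siCon. Abundant enough to be tested were 9 of 11 Kupffer cell and macrophage markers, 1 of 4 lymphocyte markers and all endothelial and stellate markers. Without mouse as a block in the fit, none of these passed the threshold against siCon in any knockdown. With the block, of 9 Kupffer cell and macrophage markers tested 4 were lower in the double knockdown, 2 in siHnf4a and 2 in siCebpa. These counts were 3, 1 and 2 of 6 endothelial, 1, 2 and 0 of 8 stellate and 4, 4 and 3 of 4 cholangiocyte markers tested. Of all genes, 15.6%, 15.5% and 8.11% were lower in that fit. The part of other cells in the results below was not tested.

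In siCon cultures the members covered a wide range of levels. The most abundant was Glud1, glutamate dehydrogenase, at 342 ± 98.2 TPM (SD, n = 3), followed by Gpt2 and Got2, the mitochondrial alanine and aspartate aminotransferases, at 252 ± 87.4 and 227 ± 4.39 TPM. Fah, the last enzyme of tyrosine breakdown, and Ftcd, the last of histidine breakdown, were at 97.2 ± 15.1 and 82.2 ± 13.8 TPM. The least abundant were Sds, Hal, Prodh2, Aass and Uroc1, at 1.63 to 3.07 TPM, against a median of 12.8 TPM over all genes tested. Because the libraries come from whole cultures, fewer cells of a type and less RNA per cell cannot be told apart in any of these values.

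**Figure D1:**
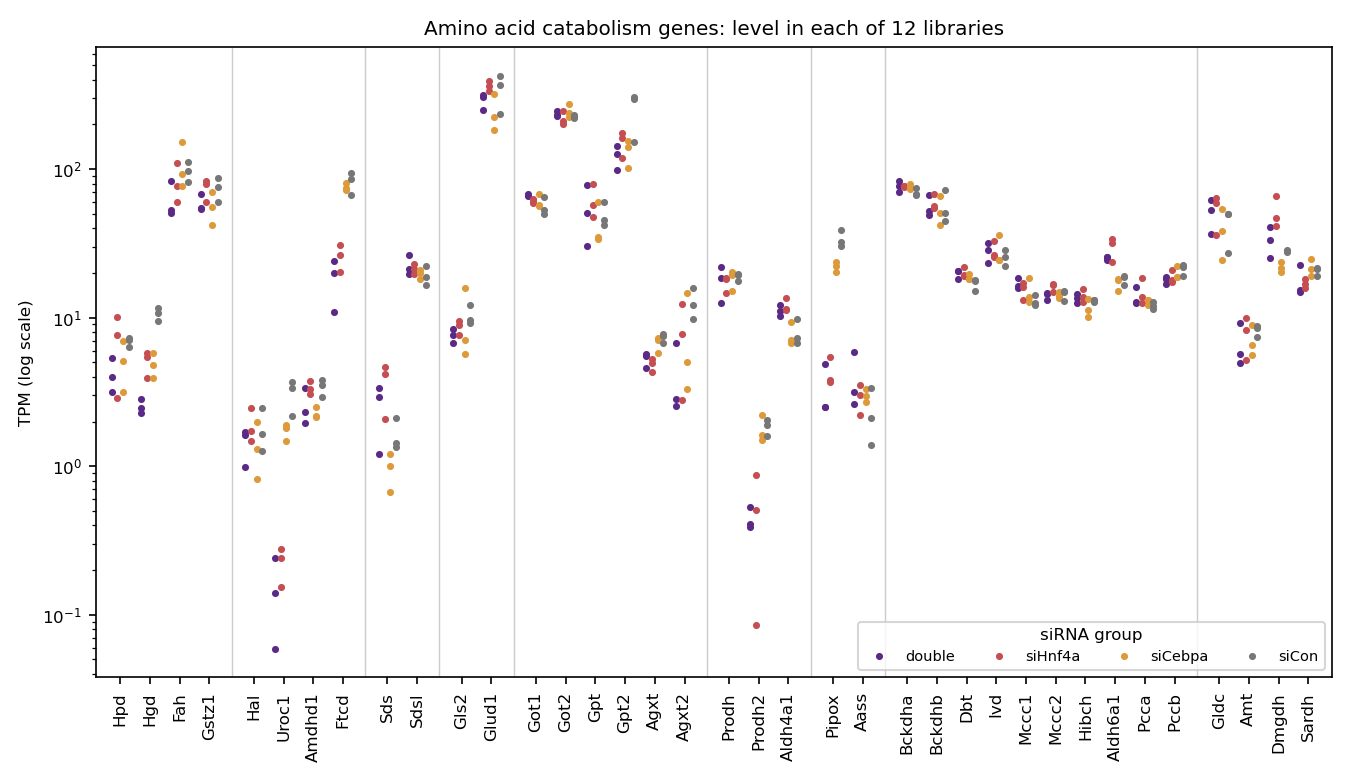
Level of each of the 37 amino acid catabolism genes (TPM, log axis) in the 12 libraries, coloured by siRNA group (double knockdown, siHnf4a, siCebpa, siCon) and separated by grey lines into the 9 pathway sets. Uroc1, Ftcd, Prodh2 and Pipox sit lower in the double knockdown and siHnf4a libraries than in all siCebpa and siCon libraries.

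Members that passed the threshold against siCon went in both directions. "Rose" and "fell" are used here for an adjusted p under 0.05 in edgeR's quasi-likelihood test with Benjamini-Hochberg adjustment over all 15090 genes tested. Against siCon, 1 member rose and 6 fell in the double knockdown, where 6.9% of all genes tested rose and 7.13% fell (14% in all). With siHnf4a 5 members rose and 5 fell, where 7.24% of all genes rose and 7.29% fell (14.5% in all). With siCebpa 1 rose and 1 fell, where 2.94% of all genes rose and 1.72% fell (4.67% in all). The median log2 fold change of the 37 members was -0.05 in the double knockdown, 0.01 in siHnf4a and 0.04 in siCebpa, beside 0.00 for all genes tested in each comparison. Of the members, 23 in the double knockdown, 25 in siHnf4a and 30 in siCebpa stayed within 0.5 log2 units of siCon. With mouse as a block in the fit, the counts were 6 higher and 10 lower in the double knockdown (13.8% and 15.6% of all genes, 29.5% in all), 7 and 7 in siHnf4a (14.5% and 15.5%, 30% in all) and 7 and 2 in siCebpa (8.73% and 8.11%, 16.8% in all). Without the 4 libraries of mouse 1, and with no block, they were 0 higher and 8 lower in the double knockdown, 2 and 7 in siHnf4a and 0 and 2 in siCebpa, where 2554, 2614 and 1035 of all genes passed. Counts of members, and of all genes, were smaller without some single libraries. Fits with libraries left out, here and for the single genes below, had no mouse block and so did not use the pairing. For the double knockdown 4 members passed without its library of mouse 3 or without the siCon library of mouse 2, and for siHnf4a 6 passed without its library of mouse 2 or without the siCon library of mouse 2. All genes called numbered 1423 and 1210 there for the double knockdown, against 2117 with every library, and 1137 and 1120 for siHnf4a, against 2193. In siCebpa no member passed without the siCebpa or the siCon library of mouse 2 or mouse 3, where 114 to 341 of all genes did against 704 with every library, and 1 passed without the siCebpa library of mouse 1 (693 of all genes).

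The TPM ranges of the groups were compared too. With the double knockdown 5 members lay above and 11 below all 3 siCon libraries, where 14.1% and 15.7% of all genes did so. In siHnf4a 5 lay above and 7 below, where 14.9% and 15.9% of all genes did. In siCebpa 1 lay above and 6 below, where 4.94% and 18.9% of all genes did. A siCebpa fit on log2(TPM + 1) placed the median of all genes at -0.12 against siCon, a shift that TPM differences of siCebpa carry.

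**Figure D2:**
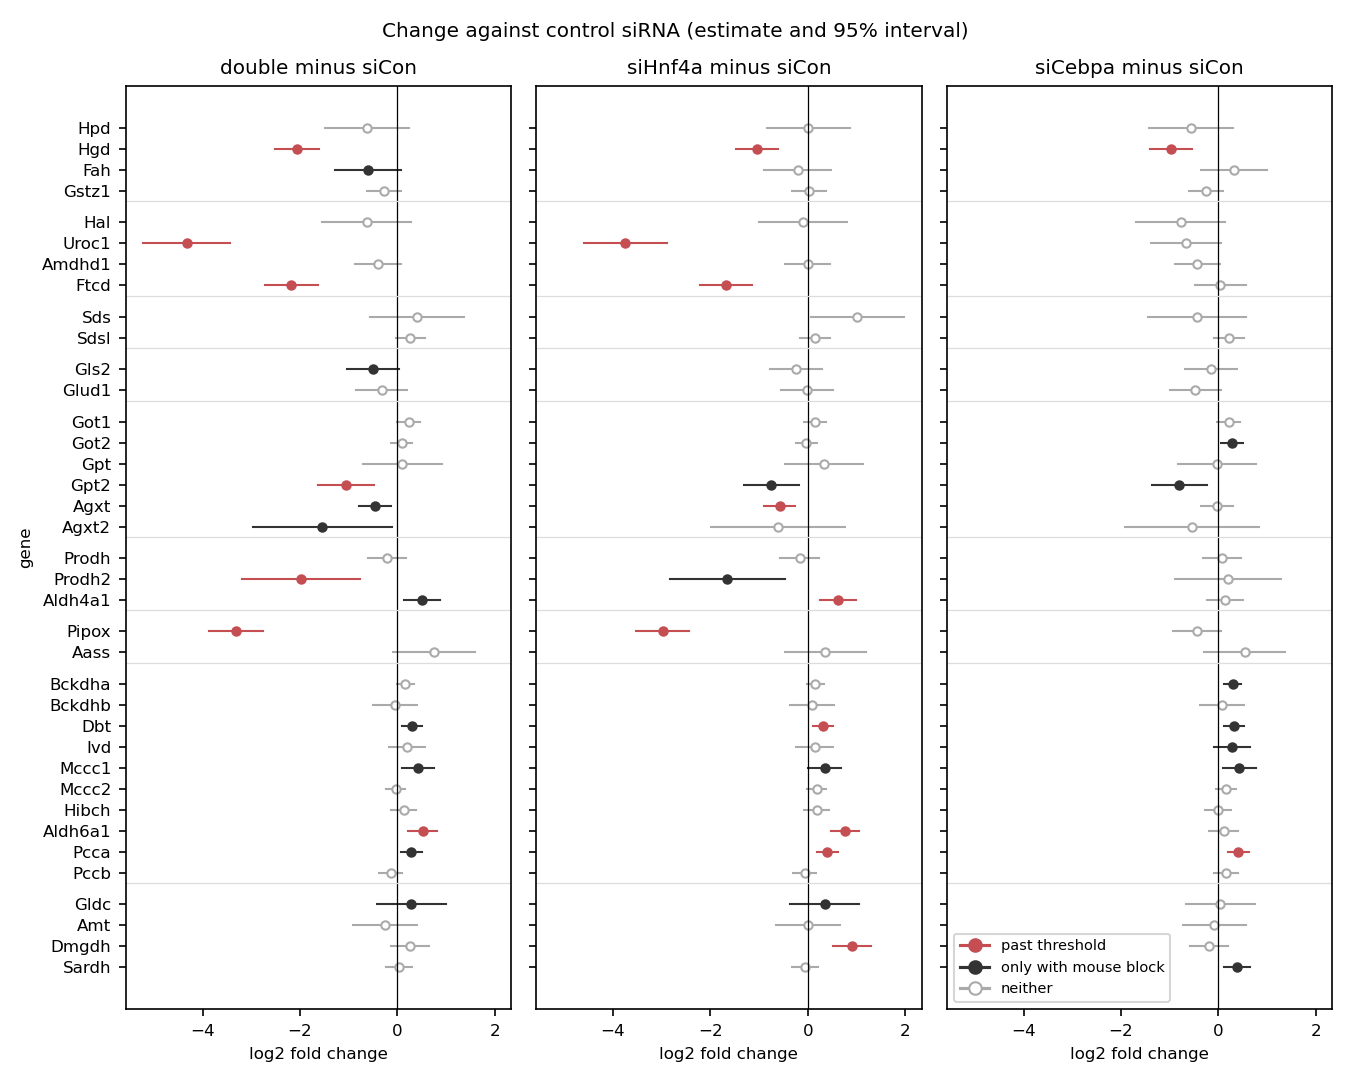
Log2 fold change against siCon, with its 95% interval, of all 37 members in the double knockdown, siHnf4a and siCebpa, arranged by pathway set. Red points passed the threshold, black points passed it only with mouse as a block, and open grey points did neither; the long leftward shifts are those of Uroc1, Pipox, Ftcd, Hgd and Prodh2.

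The promoters of the members were read beside these values, since both siRNA targets bind DNA. RefSeq promoters of GRCm38.p6, from 250 bases before to 50 bases after the transcription start, were found for 32 of the 37 genes. The HNF4 core word CAAAGTNCA, searched on both strands, was present in 1.41% of all 32851 promoters. Among the members it was found in 3 of the 32 genes, Agxt2, Ftcd and Pipox. The C/EBP core word TTGCNNAA, searched on both strands, was present in 10.8% of all promoters. Among the members it was found in 5 of the 32 genes, Aass, Agxt2, Hal, Hgd and Prodh2. Of these 5, only Hgd passed against siCon in siCebpa, in either fit. The percentages are over promoters, and the 32 member genes had 37 promoters. Neither word was found in the promoters of Uroc1, Gpt2 and Agxt, which each fell against siCon in at least 1 knockdown. Uroc1 had the largest fall of all members in the double knockdown and in siHnf4a. The sequences shown were picked from members with a match, and of these Agxt2 passed against siCon only with mouse as a block. Ftcd and Hgd are shown with the 250 bases before their start, and Pipox, Agxt2 and Prodh2 with a window of 29 bases around the match. All are written 5′ to 3′ along the gene's strand, with the matched letters in capitals.
Ftcd, HNF4 core, chr10:76575398-76575647, plus strand: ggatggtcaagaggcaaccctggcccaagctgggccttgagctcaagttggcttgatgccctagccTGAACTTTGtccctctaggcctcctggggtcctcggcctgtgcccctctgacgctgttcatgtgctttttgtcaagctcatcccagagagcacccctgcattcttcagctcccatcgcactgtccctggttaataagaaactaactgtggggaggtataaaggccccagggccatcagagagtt
Hgd, C/EBP core, chr16:37579903-37580152, plus strand: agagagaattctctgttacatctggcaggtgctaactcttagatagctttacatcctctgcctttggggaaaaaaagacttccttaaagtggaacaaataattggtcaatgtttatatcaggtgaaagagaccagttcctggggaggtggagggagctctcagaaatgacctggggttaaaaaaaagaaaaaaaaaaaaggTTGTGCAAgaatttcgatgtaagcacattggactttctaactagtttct
Pipox, HNF4 core, chr11:77893839-77893867, minus strand: ctagtttagcTGGACTTTGcctccctcct
Agxt2, HNF4 core, chr15:10358502-10358530, plus strand: cttctaatatCAAAGTCCAgtccagtcag
Prodh2, C/EBP core, chr7:30493408-30493436, plus strand: tgcttaTTCAGCAAtgcaagctggacagc
In Ftcd the matched letters begin 184 bases before the start and in Hgd 49 bases before it, and Hgd has another C/EBP core match that begins 15 bases after its start. In Pipox they begin 16 bases after the RefSeq start. A match describes letters in this window and is no measurement of binding.

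Transcripts of 2 of the 4 histidine breakdown genes fell in both groups that received the Hnf4a siRNA. The pathway runs from histidine ammonia-lyase (Hal) through urocanate hydratase (Uroc1) and imidazolonepropionase (Amdhd1) to formimidoyltransferase cyclodeaminase (Ftcd), which hands the last carbon to folate. Uroc1 (chromosome 6, 90333284 to 90364551, plus strand, GRCm38.p6) was at 0.141, 0.059 and 0.242 TPM in the double knockdown, 0.154, 0.276 and 0.24 in siHnf4a, 1.47, 1.88 and 1.81 in siCebpa and 2.17, 3.38 and 3.67 in siCon. The double knockdown and siHnf4a libraries did not overlap with those of siCebpa or siCon, and every siCebpa library lay below every siCon library. With both siRNAs Uroc1 fell to 4.99% of siCon (-4.32 ± 0.40 log2 units, SE, adjusted p = 9.22e-05). It fell to 7.44% in siHnf4a (-3.75 ± 0.39, adjusted p = 0.000187). In siCebpa the change of -0.67 ± 0.33 did not pass (95% interval -1.39 to 0.06, adjusted p = 0.285). These values rest on few reads, with 3 to 13 counts per library in the double knockdown and 9 to 15 with siHnf4a, against 86 to 107 with siCebpa and 124 to 192 with siCon.

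Ftcd (chromosome 10, 76575648 to 76590338, plus strand) is the abundant member of the pathway. It was at 24.1, 20.1 and 10.9 TPM in the double knockdown, 26.6, 30.9 and 20.4 in siHnf4a, 74.9, 72.4 and 80.0 in siCebpa and 67.0, 93.7 and 85.9 in siCon. All 6 libraries that received the Hnf4a siRNA lay below the other 6, while siCebpa and siCon overlapped. Ftcd fell by 2.18 ± 0.25 log2 units in the double knockdown (adjusted p = 0.000327) and by 1.68 ± 0.24 in siHnf4a (adjusted p = 0.00143), to 22.1% and 31.3% of siCon. In siCebpa it was at 102% of siCon (0.04 ± 0.24, 95% interval -0.49 to 0.56). The calls for Uroc1 and Ftcd in both groups held under all 15 alternatives, including each library left out in turn.

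The other members of the pathway showed no change past the threshold. Hal averaged 1.44 ± 0.393 TPM in the double knockdown, 1.88 ± 0.502 in siHnf4a, 1.36 ± 0.581 in siCebpa and 1.78 ± 0.605 in siCon. Amdhd1 averaged 2.55 ± 0.722, 3.36 ± 0.347, 2.27 ± 0.195 and 3.42 ± 0.443 TPM in the same groups. Their log2 fold changes in siHnf4a were -0.10 ± 0.41 and 0.00 ± 0.21, so that for Hal the interval of -1.001 to 0.796 leaves changes in either direction possible. Amdhd1 was lower in all 3 siCebpa libraries than in any siCon library, at -0.43 ± 0.21 (adjusted p = 0.286). As a sum the 4 genes gave 22.5 ± 7.36 TPM in the double knockdown, 31.4 ± 5.63 in siHnf4a, 81.2 ± 3.52 in siCebpa and 90.5 ± 14.3 in siCon, and Ftcd made up most of each sum.

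Of the lysine genes, the peroxisomal one fell and the mitochondrial one did not. Pipox (chromosome 11, 77880615 to 77894096, minus strand), an oxidase of pipecolic acid and sarcosine, was at 4.87, 2.52 and 2.49 TPM in the double knockdown, 5.40, 3.81 and 3.71 in siHnf4a, 22.4, 20.2 and 23.9 in siCebpa and 30.5, 32.2 and 39.1 in siCon. The groups formed separate ranges, except that the double knockdown and siHnf4a overlapped. Pipox fell by 3.31 ± 0.25 log2 units in the double knockdown (adjusted p = 2.59e-05) and by 2.98 ± 0.25 in siHnf4a (adjusted p = 4.18e-05), to 10.1% and 12.7% of siCon. In siCebpa it was lower than siCon in 3 of 3 mice, at -0.43 ± 0.23, which did not pass (adjusted p = 0.312). Both calls held under all 15 alternatives. Aass, the bifunctional enzyme that starts lysine breakdown by the saccharopine route, averaged 3.88 ± 1.74, 2.90 ± 0.651, 2.99 ± 0.312 and 2.29 ± 0.988 TPM in the double knockdown, siHnf4a, siCebpa and siCon. Its estimates against siCon were all above 0, at 0.75 ± 0.38, 0.36 ± 0.38 and 0.54 ± 0.38 in the 3 knockdowns, and none passed.

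In tyrosine breakdown, Hgd was lower in every knockdown. Hgd (chromosome 16, 37580153 to 37632020, plus strand) encodes homogentisate dioxygenase, the enzyme that opens the aromatic ring and that is deficient in alkaptonuria. It was at 2.84, 2.29 and 2.46 TPM in the double knockdown, 5.42, 5.81 and 3.94 in siHnf4a, 5.77, 4.78 and 3.92 in siCebpa and 10.7, 11.7 and 9.49 in siCon. All double knockdown libraries lay below all libraries of the single knockdowns, which overlapped with each other and lay below all siCon libraries. Against siCon, Hgd fell to 24% in the double knockdown (-2.06 ± 0.20, adjusted p = 0.000132). The single knockdowns left 48.1% with siHnf4a (-1.05 ± 0.20, adjusted p = 0.00559) and 50.6% with siCebpa (-0.98 ± 0.20, adjusted p = 0.0223). The siCebpa call was lost without the siCebpa or siCon library of mouse 2 or mouse 3, with adjusted p from 0.0671 to 0.1, and in the fit to the compared groups alone, while the other calls held under all 15 alternatives. An antisense gene on the other strand of Hgd, Gm46559, was at no more than 1.94 TPM in any library.

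The other tyrosine genes did not pass without the block. Fah, fumarylacetoacetase, was at 83.8, 53.3 and 51.0 TPM in the double knockdown, 110, 76.9 and 60.1 in siHnf4a, 153, 76.7 and 92.4 in siCebpa and 112, 97.1 and 82.1 in siCon. Mouse 1 had the highest value in every group, so the groups overlapped although the double knockdown was below siCon in 3 of 3 mice. Its change in the double knockdown was -0.61 ± 0.31 (adjusted p = 0.231), and with mouse as a block -0.64 ± 0.13 (adjusted p = 0.00431). Hpd, which forms homogentisate, lay below all siCon libraries in the double knockdown, at 5.37, 3.96 and 3.14 TPM against 7.03, 7.29 and 6.30 TPM in siCon, but the change of -0.63 ± 0.39 did not pass (adjusted p = 0.327). Gstz1, maleylacetoacetate isomerase, changed by between -0.28 and 0.02 log2 units. Hpd and Gstz1 overlap Psmd9 and Pomt2 on the other strand, at mean levels of 12.9 and 14.2 TPM, and the strand setting of the counting is not given in the sources used here.

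**Figure D3:**
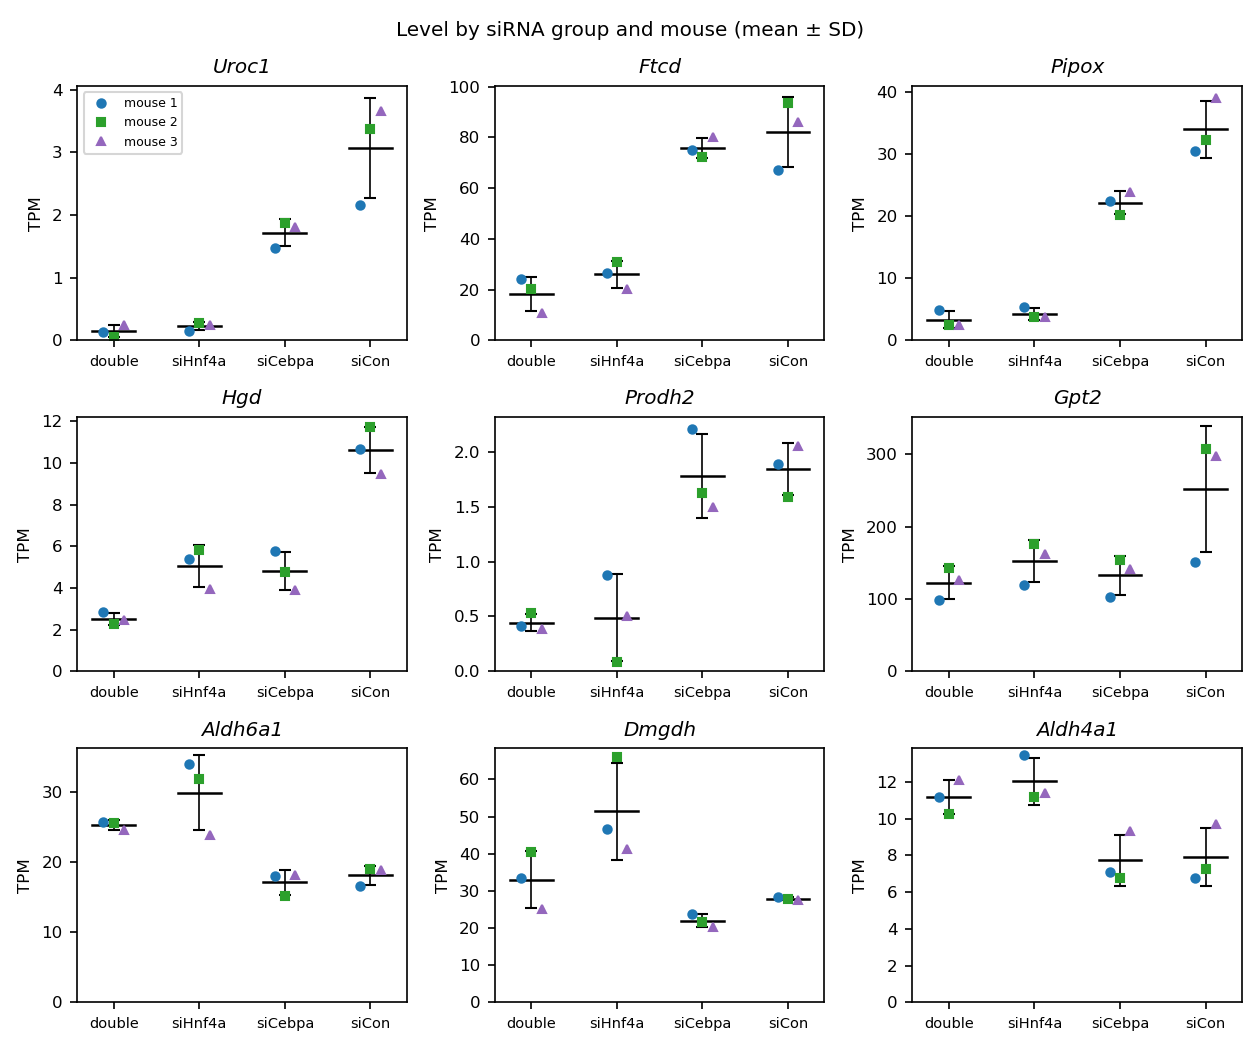
TPM of 9 members in each library, with mean and SD bars per siRNA group (n = 3) and a symbol for each mouse; the axes start at 0. Uroc1, Ftcd, Pipox and Prodh2 are low in both groups that received the Hnf4a siRNA, Hgd is low in all 3 knockdowns, and Aldh6a1, Dmgdh and Aldh4a1 average highest in siHnf4a.

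Of the 3 genes of proline and hydroxyproline breakdown, Prodh2 fell in the double knockdown and Aldh4a1 rose in siHnf4a. Prodh2 (chromosome 7, 30493622 to 30513402, plus strand), the dehydrogenase of hydroxyproline, was at 0.411, 0.534 and 0.39 TPM in the double knockdown, 0.876, 0.0849 and 0.506 in siHnf4a, 2.21, 1.62 and 1.5 in siCebpa and 1.89, 1.59 and 2.05 in siCon. All 6 libraries with the Hnf4a siRNA lay below the other 6. Prodh2 fell by 1.98 ± 0.55 log2 units in the double knockdown (adjusted p = 0.0351), a call lost without any of the 6 libraries compared (adjusted p from 0.0676 to 0.109), without all 4 libraries of mouse 1 and on log2 TPM with a pseudocount of 0.1. In siHnf4a the change of -1.65 ± 0.53 did not pass (adjusted p = 0.0628) and with mouse as a block it was -1.74 ± 0.40 (adjusted p = 0.00803). Counts were low, at 7 to 10 per library in the double knockdown and 2 to 22 in siHnf4a, against 30 to 49 in siCebpa and 29 to 46 in siCon.

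Aldh4a1, a mitochondrial dehydrogenase that acts in both the proline and the hydroxyproline route, was at 11.2, 10.3 and 12.1 TPM in the double knockdown, 13.5, 11.2 and 11.4 in siHnf4a, 7.08, 6.79 and 9.33 in siCebpa and 6.75, 7.25 and 9.73 in siCon. All libraries with the Hnf4a siRNA lay above the others. It rose by 0.62 ± 0.17 log2 units in siHnf4a (adjusted p = 0.0314), a call lost without any of the 3 siHnf4a libraries or the siCon library of mouse 1 or 2 (adjusted p from 0.0541 to 0.121), without all 4 libraries of mouse 1 and in the fit to the compared groups alone. The double knockdown changed it by 0.51 ± 0.17 (adjusted p = 0.067), and with mouse as a block 0.52 ± 0.13 (adjusted p = 0.0114). Prodh, proline dehydrogenase, averaged 17.6 ± 4.75, 17.1 ± 2.20, 18.2 ± 2.71 and 18.9 ± 1.06 TPM in the double knockdown, siHnf4a, siCebpa and siCon and passed against siCon in neither fit. It overlaps Dgcr6 on the other strand, at a mean of 43.6 TPM.

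Among the transaminases Gpt2 was lower in every knockdown in 3 of 3 mice. It was at 98.2, 143 and 126 TPM in the double knockdown, 120, 176 and 162 in siHnf4a, 102, 154 and 142 in siCebpa and 151, 307 and 298 in siCon. Mouse 1 was lowest in each group, and its siCon library overlapped with both single knockdowns but not with the double knockdown. Gpt2 fell by 1.06 ± 0.26 log2 units in the double knockdown (adjusted p = 0.0207), a call lost without the double knockdown library of mouse 1 or 3 or the siCon library of mouse 2 or 3 (adjusted p from 0.0503 to 0.0821) and in the fit to the compared groups alone. In siHnf4a the change was -0.75 ± 0.26 (adjusted p = 0.0764) and with mouse as a block -0.71 ± 0.11 (adjusted p = 0.000815). In siCebpa it was -0.80 ± 0.26 (adjusted p = 0.109) and with the block -0.76 ± 0.11 (adjusted p = 0.00159).

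Agxt and Agxt2 transfer the amino group of alanine to glyoxylate. Agxt was at 4.58, 5.73 and 5.50 TPM in the double knockdown, 4.28, 5.28 and 4.93 in siHnf4a, 7.33, 7.09 and 5.81 in siCebpa and 6.75, 7.58 and 7.81 in siCon. Libraries with the Hnf4a siRNA lay below all others. It fell by 0.58 ± 0.15 log2 units in siHnf4a (adjusted p = 0.0238), a call lost without any of the 3 siHnf4a libraries or the siCon library of mouse 2 or 3 (adjusted p from 0.0587 to 0.0865), and with no filter on low counts. With both siRNAs it was at -0.46 ± 0.15 (adjusted p = 0.0605) and with mouse as a block at -0.46 ± 0.14 (adjusted p = 0.0326). Agxt2 was at 6.74, 2.82 and 2.56 TPM in the double knockdown, 12.3, 7.74 and 2.79 in siHnf4a, 14.6, 5.05 and 3.33 in siCebpa and 16.0, 12.2 and 9.76 in siCon, highest in mouse 1 of each group. The double knockdown lay below siCon, at -1.54 ± 0.64 (adjusted p = 0.143) and with the block at -1.66 ± 0.29 (adjusted p = 0.00164).

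The cytosolic and mitochondrial aspartate aminotransferases Got1 and Got2 stayed close to siCon. Got1 was at 66.6, 65.7 and 67.7 TPM in the double knockdown against 52.8, 49.7 and 65.2 TPM in siCon, without overlap, but its change of 0.23 ± 0.11 did not pass (adjusted p = 0.188). Got2 averaged 236 ± 9.77, 219 ± 24.5, 245 ± 25.4 and 227 ± 4.39 TPM in the double knockdown, siHnf4a, siCebpa and siCon. Only in siCebpa and with mouse as a block did it pass against siCon, at 0.26 ± 0.07 (adjusted p = 0.0263; 0.27 ± 0.10 and adjusted p = 0.161 without the block). Gpt, the cytosolic alanine aminotransferase, averaged 53.1 ± 24.2, 61.2 ± 15.9, 43.0 ± 14.6 and 49.0 ± 9.81 TPM in these groups, with mouse 1 highest in each, and passed in none against siCon. The 6 transaminases summed to 488 ± 8.52 TPM in the double knockdown, 507 ± 26.5 in siHnf4a, 496 ± 30.5 in siCebpa and 604 ± 81.6 in siCon.

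The genes of glutamine, glutamate and serine breakdown did not pass against siCon without the block. Gls2, the liver glutaminase, was at 8.43, 7.66 and 6.75 TPM in the double knockdown, against 12.1, 9.21 and 9.71 TPM in siCon, without overlap. Its change of -0.50 ± 0.25 did not pass (adjusted p = 0.209), and with mouse as a block it was -0.52 ± 0.17 (adjusted p = 0.0446). Gls2 overlaps Spryd4 on the other strand, which had a mean of 34.7 TPM against 9.05 TPM for Gls2. Glud1 averaged 292 ± 35.2 TPM in the double knockdown, 365 ± 27.3 in siHnf4a, 243 ± 69.8 in siCebpa and 342 ± 98.2 in siCon and passed in no comparison. Sds and Sdsl, the serine dehydratase and its relative, averaged 2.49 ± 1.13 and 22.5 ± 3.45 TPM in the double knockdown, 3.63 ± 1.37 and 21.4 ± 1.74 in siHnf4a, 0.96 ± 0.267 and 19.7 ± 1.41 in siCebpa and 1.63 ± 0.417 and 19.2 ± 2.79 in siCon. Neither passed against siCon.

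**Figure D4:**
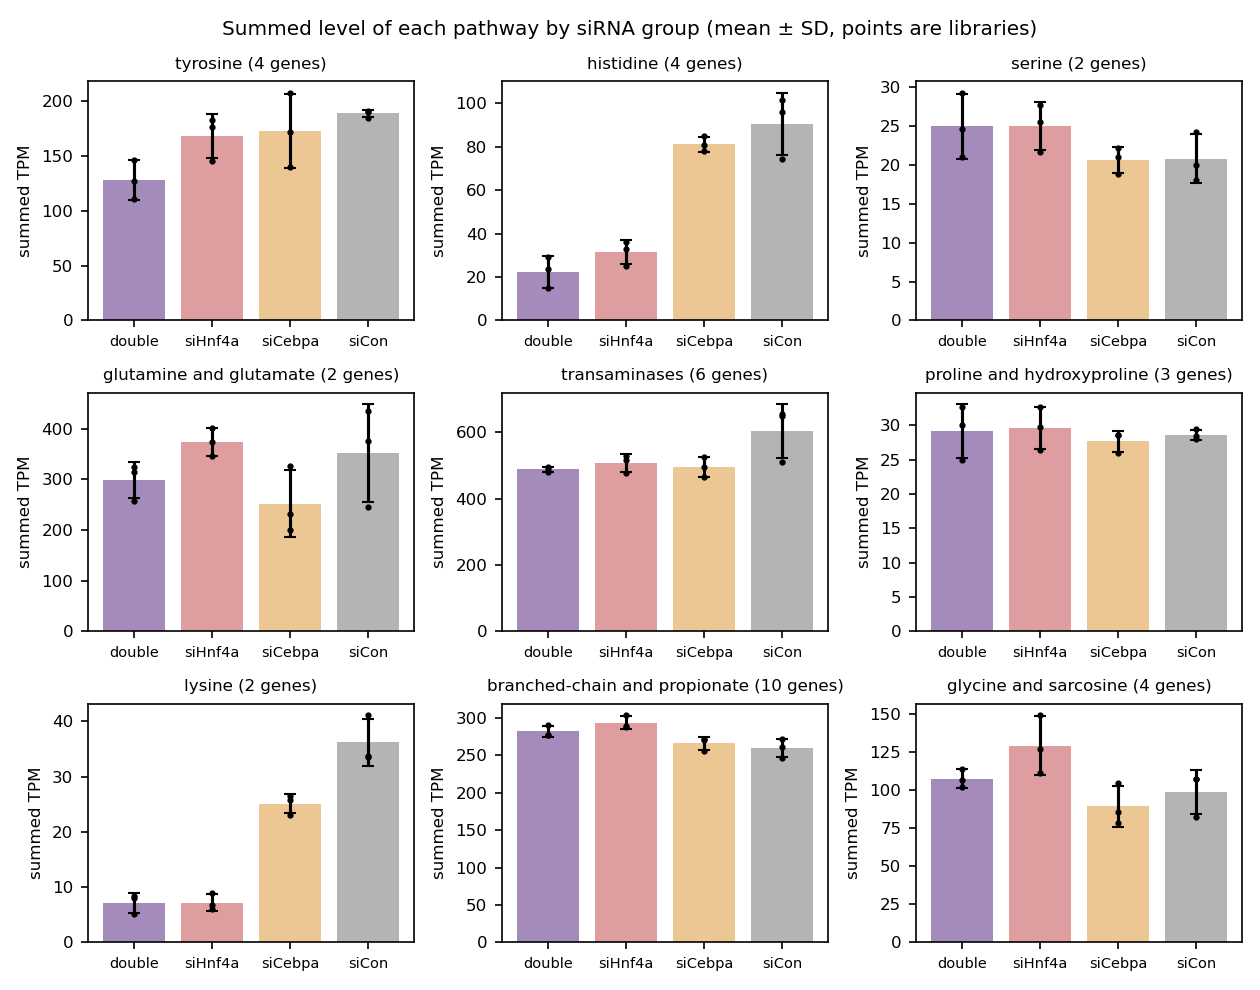
Summed TPM of the members of each of the 9 pathway sets, as mean bars from 0 with SD (n = 3) and a point per library, for the double knockdown, siHnf4a, siCebpa and siCon. The histidine and lysine sums are lowest in the double knockdown and siHnf4a, at 22.5 and 31.4 TPM for histidine and 7.17 and 7.21 TPM for lysine, against 90.5 and 36.2 TPM in siCon.

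Of the 10 genes of branched-chain amino acid and propionate breakdown, a minority rose and none fell against siCon. With no block, 1 rose in the double knockdown, 3 in siHnf4a and 1 in siCebpa, where 6.9%, 7.24% and 2.94% of all genes rose. The blocked fit had 4, 4 and 5 higher, where 13.8%, 14.5% and 8.73% of all genes were. The median log2 fold change of the 10 genes was 0.18 in the double knockdown, 0.18 in siHnf4a and 0.22 in siCebpa, and on log2(TPM + 1) it was 0.13, 0.15 and 0.03. On log2(TPM + 1) 8, 9 and 5 of the 10 lay above 0, and the median of all genes in siCebpa was -0.12. The gene that moved most was Aldh6a1 (chromosome 12, 84430717 to 84451004, minus strand), the dehydrogenase of methylmalonate semialdehyde at the end of valine breakdown. It was at 25.7, 25.5 and 24.5 TPM in the double knockdown, 33.9, 31.8 and 23.8 in siHnf4a, 18.0, 15.1 and 18.1 in siCebpa and 16.5, 19.0 and 18.8 in siCon. All libraries with the Hnf4a siRNA lay above the others. Aldh6a1 rose to 170% of siCon in siHnf4a (0.76 ± 0.13, adjusted p = 0.00387), which held under all 15 alternatives. With both siRNAs it rose by 0.52 ± 0.13 (adjusted p = 0.0253), a call lost without any of the 6 libraries compared (adjusted p from 0.0604 to 0.0774) and without all 4 libraries of mouse 1.

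Pcca and Pccb encode the subunits of propionyl-CoA carboxylase. Pcca was at 12.7, 16.1 and 12.5 TPM in the double knockdown, 18.5, 13.8 and 12.5 in siHnf4a, 12.2, 13.1 and 13.1 in siCebpa and 11.4, 12 and 12.7 in siCon, and each knockdown overlapped with siCon. In counts it rose by 0.40 ± 0.10 log2 units in siHnf4a (adjusted p = 0.0223) and by 0.41 ± 0.10 in siCebpa (adjusted p = 0.0438). With both siRNAs it was at 0.29 ± 0.10 (adjusted p = 0.0804) and with mouse as a block at 0.29 ± 0.09 (adjusted p = 0.0344). In the log2(TPM + 1) fit the differences were 0.27 in siHnf4a and 0.08 in siCebpa (adjusted p = 0.261 and 0.796), or 0.20 in siCebpa when read against the median of all genes. The siHnf4a call was lost without the siHnf4a library of mouse 1 or 2 or the siCon library of mouse 2 or 3 (adjusted p from 0.0557 to 0.0948). The siCebpa call was lost without any siCebpa library or the siCon library of mouse 2 or 3 (adjusted p from 0.0605 to 0.195), and with the stricter filter. Both calls were lost without all libraries of mouse 1, with no filter, on log2 TPM and in the fit to the compared groups alone. Pcca overlaps Ggact on the other strand, at a mean of 12.9 TPM. Pccb averaged 18.0 ± 1.07, 18.8 ± 1.86, 19.9 ± 1.98 and 21.2 ± 1.87 TPM in the double knockdown, siHnf4a, siCebpa and siCon and passed in none against siCon.

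Bckdha, Bckdhb and Dbt encode subunits of the branched-chain ketoacid dehydrogenase complex. Dbt was at 18.3, 20.5 and 20.6 TPM in the double knockdown, 19.0, 19.4 and 21.9 in siHnf4a, 18.3, 18.1 and 19.8 in siCebpa and 18.0, 15.2 and 17.8 in siCon. Every knockdown library lay above every siCon library. Dbt rose by 0.31 ± 0.09 log2 units in siHnf4a (adjusted p = 0.0477), a call lost without any of the 6 libraries compared (adjusted p from 0.055 to 0.15), without all libraries of mouse 1, with no filter, on log2 TPM and in the fit to the compared groups alone. With both siRNAs it was at 0.30 ± 0.09 and in siCebpa at 0.32 ± 0.09 (adjusted p = 0.0522 and 0.0799), and with mouse as a block these were 0.30 ± 0.07 and 0.32 ± 0.07 (adjusted p = 0.00798 and 0.0111). Bckdha averaged 76.7 ± 6.68, 76.4 ± 0.798, 76.2 ± 2.61 and 69.7 ± 4.55 TPM in the double knockdown, siHnf4a, siCebpa and siCon, and in siCebpa its blocked change was 0.29 ± 0.08 (adjusted p = 0.0281; 0.0627 without the block). Bckdhb averaged 56.1 ± 9.61, 59.7 ± 6.85, 52.7 ± 12.2 and 56.0 ± 14.9 TPM and stayed within 0.08 log2 units of siCon in each knockdown.

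Leucine breakdown continues with Ivd, isovaleryl-CoA dehydrogenase, and Mccc1 and Mccc2, the subunits of methylcrotonyl-CoA carboxylase. Mccc1 was at 15.9, 16.2 and 18.6 TPM in the double knockdown, 13.2, 16.1 and 17.2 in siHnf4a, 12.7, 13.7 and 18.6 in siCebpa and 12.2, 12.6 and 14.2 in siCon. It was higher than siCon in 3 of 3 mice in each knockdown, and only the double knockdown did not overlap with siCon. Without the block its changes of 0.42 ± 0.15, 0.34 ± 0.15 and 0.43 ± 0.15 in the double knockdown, siHnf4a and siCebpa did not pass (adjusted p = 0.0945, 0.166 and 0.143). With it they were 0.41, 0.34 and 0.41, each ± 0.09 (adjusted p = 0.00667, 0.0176 and 0.0127). Ivd passed only in siCebpa and only with the block, at 0.27 ± 0.08 (adjusted p = 0.0449; 0.402 without the block). Mccc2 and Hibch, the hydrolase of hydroxyisobutyryl-CoA in valine breakdown, changed by between -0.04 and 0.18 log2 units.

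The glycine and sarcosine set holds 2 mitochondrial flavoproteins of choline breakdown, Dmgdh and Sardh, and 2 components of the glycine cleavage system, Gldc and Amt. Dmgdh (chromosome 13, 93674433 to 93752833, plus strand), which demethylates dimethylglycine, was at 33.5, 40.6 and 25.1 TPM in the double knockdown, 46.7, 66.2 and 41.3 in siHnf4a, 23.9, 21.6 and 20.4 in siCebpa and 28.3, 28.0 and 27.5 in siCon. All siHnf4a libraries lay above all others, and all siCebpa libraries lay below all others. Dmgdh rose to 186% of siCon in siHnf4a (0.90 ± 0.18, adjusted p = 0.00786), a call that held under all 15 alternatives. With both siRNAs it was at 0.26 ± 0.18 (adjusted p = 0.372) and in siCebpa at -0.19 ± 0.18 (adjusted p = 0.615). Gldc, the decarboxylase of the glycine cleavage system, was at 36.8, 52.7 and 61.7 TPM in the double knockdown, 36.2, 59.6 and 63.6 in siHnf4a, 24.6, 38.4 and 53.9 in siCebpa and 27.4, 49.6 and 49.9 in siCon, lowest in mouse 1 of each group. With mouse as a block it was higher by 0.29 ± 0.09 in the double knockdown and by 0.36 ± 0.09 in siHnf4a (adjusted p = 0.0371 and 0.0151), against 0.28 ± 0.32 and 0.35 ± 0.32 without it (adjusted p = 0.615 and 0.522). Sardh, sarcosine dehydrogenase, passed against siCon only in siCebpa and only with the block, at 0.37 ± 0.10 (adjusted p = 0.0289; 0.11 without the block). In the log2(TPM + 1) fit it was at 0.07 in siCebpa (adjusted p = 0.841), or 0.19 against the median of all genes. Amt averaged 6.61 ± 2.22, 7.80 ± 2.46, 7.04 ± 1.73 and 8.25 ± 0.704 TPM in the double knockdown, siHnf4a, siCebpa and siCon and did not pass.

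The double knockdown was then set against each single knockdown. Against siCebpa no member rose and 5 fell, where 6.51% of all genes tested rose and 6.47% fell (13% in all). These were Uroc1 (-3.66 ± 0.40, adjusted p = 0.000346), Pipox (-2.88 ± 0.25, adjusted p = 9.1e-05), Ftcd (-2.21 ± 0.25, adjusted p = 0.000398), Prodh2 (-2.18 ± 0.55, adjusted p = 0.0262) and Hgd (-1.07 ± 0.20, adjusted p = 0.00666). The Prodh2 call was lost without any double knockdown library or the siCebpa library of mouse 1 or 3 (adjusted p from 0.0537 to 0.091), and on log2 TPM with a pseudocount of 0.1. With mouse as a block 3 members were higher and 11 lower, where 13% and 14.3% of all genes were (27.3% in all). The 9 added by the block, with adjusted p from 0.000685 to 0.0477, were Fah (-0.90 ± 0.13), Agxt2 (-0.88 ± 0.29), Agxt (-0.44 ± 0.14), Sardh (-0.34 ± 0.10), Prodh (-0.29 ± 0.10), Pccb (-0.29 ± 0.07), Dmgdh (0.43 ± 0.13), Aldh6a1 (0.41 ± 0.13) and Aldh4a1 (0.39 ± 0.13). Without the block their adjusted p ran from 0.0664 to 0.357. In TPM 4 members lay above and 6 below all siCebpa libraries, where 21% and 7.28% of all genes did.

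Against siHnf4a no member passed in edgeR with or without the block, where 0.00663% of all genes passed in each fit. At an unadjusted p under 0.05 there were 3 of 37 members without the block, 10 with it and 4 in DESeq2. Of all genes in the same fits, 2.47%, 7.61% and 1.3% were under it. DESeq2 alone called a member, Hgd, as lower, where 6 of all genes passed. In edgeR this comparison gave -1.002 ± 0.20 for Hgd, lower in 3 of 3 mice and without overlap, with an adjusted p that rounded to 1 (0.118 with the block). Dmgdh was at -0.64 ± 0.18, also lower in 3 of 3 mice without overlap (adjusted p = 0.214 with the block). In TPM 1 member lay above and 4 below all siHnf4a libraries, where 3.28% and 4.16% of all genes did. The median of the 37 members was -0.23, beside 0.01 for all genes tested. Hnf4a itself was lower in TPM in every double knockdown library than in any siHnf4a library.

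Set against each other, siHnf4a and siCebpa differed in 9 members, of which 3 were higher and 6 lower in siHnf4a, where 7.51% and 8.67% of all genes tested were (16.2% in all). The lower ones were Uroc1 (-3.08 ± 0.38, adjusted p = 0.00059), Pipox (-2.55 ± 0.24, adjusted p = 0.000154), Prodh2 (-1.85 ± 0.53, adjusted p = 0.0379), Ftcd (-1.71 ± 0.24, adjusted p = 0.0013), Agxt (-0.55 ± 0.15, adjusted p = 0.0279) and Sardh (-0.42 ± 0.12, adjusted p = 0.0359). The higher ones were Sds (1.45 ± 0.45, adjusted p = 0.0485), Dmgdh (1.09 ± 0.18, adjusted p = 0.00287) and Aldh6a1 (0.66 ± 0.13, adjusted p = 0.00806). Sds rested on 23 to 54 counts per library in siHnf4a and 13 to 16 in siCebpa and overlaps Plbd2 on the other strand, at a mean of 76.3 TPM, so its value is uncertain. Of these, Uroc1, Pipox, Ftcd and Dmgdh held under all alternatives, and Aldh6a1 under all but the fit to the compared groups alone. Leaving out single libraries ended the other calls. Sardh was lost without any of the 6 libraries compared (adjusted p from 0.0535 to 0.173), and Agxt without any siHnf4a library or the siCebpa library of mouse 1 or 2 (0.0563 to 0.0995) and without all libraries of mouse 1. Prodh2 and Sds were each lost without the siHnf4a library of mouse 2 or 3 or any siCebpa library (0.0642 to 0.107 and 0.0977 to 0.155). In the fit to the compared groups alone Sardh, Agxt, Prodh2 and Sds were all lost. With no filter Sardh, Agxt and Sds were lost, and on log2(TPM + 1) Sardh and Agxt. The count of members that differed was 5 without the siHnf4a or the siCebpa library of mouse 2. There 1131 and 1493 of all genes passed, against 2442 with every library.

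With mouse as a block 6 members were higher and 9 lower in siHnf4a than in siCebpa, where 14.9% and 16.3% of all genes were (31.2% in all). The 6 added by the block, with adjusted p from 0.00798 to 0.0401, were Fah (-0.52 ± 0.13), Got2 (-0.30 ± 0.07), Pccb (-0.22 ± 0.07), Aldh4a1 (0.51 ± 0.13), Gpt (0.37 ± 0.12) and Gldc (0.33 ± 0.09). Without the block their adjusted p ran from 0.0683 to 0.58. In TPM 7 members lay above and 6 below all siCebpa libraries, where 22.2% and 8.46% of all genes did.

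Whether the double knockdown departed from the sum of the single effects was read from the interaction, which is the log2 change of the double knockdown against siCon less the sum of both single changes. No member passed in edgeR with or without the block, where 0.0861% of all genes did without it (0.053% higher, 0.0331% lower) and 3.82% with it (1.99% higher, 1.83% lower). At an unadjusted p under 0.05 there were 4 of 37 members without the block, 8 with it, 4 in DESeq2 and 0 in the log2(TPM + 1) fit. Of all genes in the same fits, 9.86%, 19.6%, 4.65% and 10.6% were under it. For Hgd the interaction was -0.02 ± 0.27 log2 units, and for Uroc1, Pipox and Ftcd it was 0.09 ± 0.59, 0.10 ± 0.33 and -0.53 ± 0.34. All 10 branched-chain and propionate genes had an interaction below 0 in edgeR, with a median of -0.30, beside -0.18 for the 37 members and -0.01 for all genes tested, and 8 of the 10 were below 0 on log2(TPM + 1), where the median of all genes was 0.12. The lowest among these 10 was Pcca at -0.52 ± 0.14 (adjusted p = 0.247; 0.0502 with the block). Cebpa was lowered less in the double knockdown than in siCebpa, and Hnf4a was lower in TPM in the double knockdown than in siHnf4a. The interaction therefore compares unequal knockdowns.

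A second list of 43 further genes of amino acid breakdown was read in the same fits, and 40 of them were tested. With both siRNAs 3 rose and 3 fell, in siHnf4a 3 rose and 3 fell, and in siCebpa 0 rose and 1 fell, where 14%, 14.5% and 4.67% of all genes passed. The blocked fit gave 8 higher and 6 lower in the double knockdown, 14 and 4 in siHnf4a and 5 and 2 in siCebpa, where 29.5%, 30% and 16.8% of all genes passed. Aadat, an aminotransferase of the lysine product aminoadipate, fell, at -3.57 ± 0.52 log2 units in the double knockdown and -3.77 ± 0.53 in siHnf4a (adjusted p = 0.00138 and 0.00118). Phykpl, the lyase of phosphohydroxylysine, fell too, at -0.72 ± 0.10 and -0.61 ± 0.10 (adjusted p = 0.00105 and 0.00277). Bckdk, the kinase that inhibits the branched-chain ketoacid dehydrogenase complex, rose by 0.64 ± 0.10 and 0.63 ± 0.10 (adjusted p = 0.00163 and 0.00202). With both siRNAs Hoga1, which cleaves hydroxyoxoglutarate from hydroxyproline, fell by 0.83 ± 0.24 (adjusted p = 0.0416). In siCebpa Mmachc, which processes vitamin B12, fell by 0.60 ± 0.10 (adjusted p = 0.0115). The median of the 40 genes was 0.03 in the double knockdown, 0.10 in siHnf4a and 0.07 in siCebpa, beside 0.00 for all genes tested.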

How the data were processed

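The authors deposited, for each of the 12 libraries, gene-level expected counts, which are estimated and not normalised, beside TPM. GRCm38.p6, kallisto 0.4.6 and Trim Galore 0.6.4 are named, per the submitters' processing notes. Annotation, strand setting and filters: not given in the sources used here. Per the labels, TRIzol RNA was sequenced on a BGISEQ-500 instrument. Groups came from the titles. Identifiers were given symbols from GENCODE M21, by version (54487 of 55385) or without it (55144).

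Counts were rounded and fitted in R 4.3.3 with edgeR 4.0.16 (TMM, filterByExpr, 1 mean per group, all 12 libraries, 8 residual degrees of freedom), which left 15090 genes. P-values are two-sided and adjusted by Benjamini-Hochberg over these genes. Values after ± are SEs for log2 fold changes and SDs for TPM. By the series' design text every mouse, given by the replicate number, supplied all groups, so the groups are paired. Residuals of the 18 same-mouse pairs correlated with r from 0.17 to 0.77, and for 12 of 12 libraries the highest correlation was within the mouse. A blocked value is printed where it changes a member's call or moves a count of members by more than 1.5 times.

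Alternatives were the mouse block (6 residual degrees of freedom), RLE scaling, DESeq2 1.42.0, no filter, a filter of 1 CPM in 3 libraries, limma-trend (limma 3.58.1) on log2 TPM with pseudocounts of 1 and 0.1 (genes of at least 1 TPM in 3 libraries), only the compared groups, and each library left out. Leaving out mouse 1 was added after seeing the data. Apart from the mouse block itself, all alternatives were fitted without it, so calls lost there were lost in fits that do not use the pairing. The fit was tested on simulated counts for siHnf4a against siCon. It called 66 of 100 genes changed by 1 log2 unit, 92 of 100 changed by 2 and 6 of 14552 unchanged genes. A member that did not pass is therefore not shown to be unchanged. Members, lists and tests were chosen with earlier results of these data known. Every member is named, with its fold change and test wherever it passed in either fit. Of the other lists up to 4 genes per comparison are named by size of change. Some genes of those lists are not reported here. The symbol Gcat matched 2 identifiers and was not used, and Mmut was read as Mut. Promoters are from RefSeq, GRCm38.p6.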

Additional observations from a re-analysis of the deposited data

How the results depend on the processing

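No called value changed sign under an alternative. Among all 259 member values, 47 had the opposite sign on log2(TPM + 1) and 6 with the block, and none of these was called. Of 33 calls, 19 held whichever library was left out, in fits without the block, and 18 held under every alternative. With mouse as a replicate block, the members called against siCon were 16 instead of 7 in the double knockdown, 14 instead of 10 in siHnf4a and 9 instead of 2 in siCebpa. With the block they were also 14 instead of 5 for the double knockdown against siCebpa and 15 instead of 9 for siHnf4a against siCebpa, and all calls made without the block were also made with it. For siCebpa against siCon the count was 5 in DESeq2, 1 with no filter, 1 with the stricter filter, 1 on log2(TPM + 1) and 0 in the fit to the compared groups alone. All genes called there numbered 1288, 398, 712, 441 and 45, against 704 in the main fit. The fit to the compared groups alone gave 4 for siHnf4a against siCebpa, where 1322 of all genes passed, against 2442 in the main fit. DESeq2 gave 1 instead of 0 for the double knockdown against siHnf4a, where 6 of all genes passed. With 1 library left out the counts ran from 4 to 5 in the double knockdown, from 6 to 9 in siHnf4a and from 0 to 3 in siCebpa, each against siCon. All genes called ran there from 1210 to 2043, from 1120 to 2141 and from 114 to 796. Member counts ran from 4 to 5 for the double knockdown against siCebpa and from 5 to 7 for siHnf4a against siCebpa. All genes called ran there from 1053 to 2126 and from 1131 to 2880. For the double knockdown against siHnf4a and for the interaction member counts stayed at 0, with at most 1 and 17 of all genes called. The cause of these differences was not tested. Levels of different genes were not compared on the CPM scale, which is not corrected for length. The directions counted over mice and the same-mouse correlations were computed from log2 CPM. Depth limits Uroc1 and Prodh2, with at most 15 and 22 counts in the libraries with the Hnf4a siRNA, and Sds, with at most 54 in any library.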

Other observations

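Genes that carry amino acids across membranes were read in the same fits, and most of those that passed the threshold against siCon rose. Of 24 carriers listed, 22 were tested. In the double knockdown 5 rose and 2 fell (14% of all genes tested passed in either direction), in siHnf4a 5 rose and 0 fell (14.5% of all genes), and in siCebpa 0 rose and 0 fell in edgeR, where 4.67% of all genes passed. Slc16a10, a carrier of aromatic amino acids, rose by 1.33 ± 0.20 log2 units in the double knockdown (adjusted p = 0.00167) and by 1.56 ± 0.20 in siHnf4a (adjusted p = 0.000716). Slc38a4, a sodium-coupled carrier of neutral amino acids, rose by 1.01 ± 0.14 and 1.25 ± 0.14 (adjusted p = 0.000858 and 0.000272). Slc7a2, a carrier of cationic amino acids, was higher in siHnf4a by 0.80 ± 0.22 (adjusted p = 0.0347), and Slc1a4 by 0.72 ± 0.18 (adjusted p = 0.0224). In the double knockdown Slc3a1, the heavy subunit of the cystine carrier, fell by 2.43 ± 0.61 and Slc6a13, a carrier of GABA and taurine, by 1.38 ± 0.32 (adjusted p = 0.0231 and 0.0148). The median of the 22 genes was 0.15 in the double knockdown, 0.12 in siHnf4a and 0.02 in siCebpa, beside 0.00 for all genes tested. The blocked fit had 6 higher and 5 lower in the double knockdown, 7 and 5 in siHnf4a and 0 and 1 in siCebpa, where 13.8% and 15.6%, 14.5% and 15.5%, and 8.73% and 8.11% of all genes were.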
